A study of Rattus norvegicus with 15 samples.

Results

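The genes of the rat major histocompatibility complex (MHC), named RT1 in the rat, and their partner genes of antigen presentation were followed through liver cirrhosis and eplerenone treatment. The members were every gene whose symbol begins with RT1- and the genes B2m, Cd74, Ciita, Nlrc5, Tap1, Tap2, Tapbp, Psmb8, Psmb9 and Psmb10. The rule found 41 of the 32623 genes in the count table, made up of 21 class I RT1 genes, 10 class II RT1 genes and 10 others, and 36 of the 41 lie on chromosome 20 (build rn6). B2m lies on chromosome 3, Ciita on 10, Cd74 on 18, and Nlrc5 and Psmb10 on 19. The table writes the hyphen of these symbols as a dot, and the rule was applied with dots read as hyphens. A filter on low counts kept 14417 genes, among them 20 class I RT1 genes, 8 class II RT1 genes and all 10 others, so 38 members were tested. RT1-M4, RT1-Db2 and RT1-Ha did not pass it.

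MHC class I molecules display peptides cut in the cytosol by the proteasome to CD8 T cells. Interferon exchanges the proteasome's catalytic subunits for Psmb8, Psmb9 and Psmb10, the Tap1-Tap2 transporter carries the peptides into the endoplasmic reticulum, tapasin (Tapbp) holds the empty heavy chain there, and B2m is the light chain of every such molecule. Class II molecules display peptides from the endosome to CD4 T cells, and are made by dendritic cells, B cells, macrophages and other cells activated by interferon gamma. The invariant chain Cd74 guards their groove on the way, RT1-DM exchanges its remnant for a peptide and RT1-DO holds RT1-DM back. Nlrc5 is the known transactivator of class I genes, and Ciita that of class II genes. In the liver, class I is carried by most cells and class II mainly by the immune cells.

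Whole liver was taken from male Wistar rats. Control rats were not treated (n = 4 analysed, replicates 2 to 5, and control replicate 1 was not analysed here). The study left out 1 of its 5 control samples, unnamed, because it differed from the other 4 in principal component analysis. Rats with cirrhosis (n = 5) inhaled carbon tetrachloride (CCl4) and drank water with phenobarbital at 0.35 g/L for 12 weeks, and rats with cirrhosis & eplerenone (n = 5) had the same treatment plus eplerenone, a blocker of the mineralocorticoid receptor, at 100 mg per kg body weight by mouth from week 8 on. Both CCl4 groups thus carry phenobarbital, which the controls do not, and their livers were collected 7 to 10 days after the last CCl4. The study picked the sequenced rats from a larger cohort by how well cirrhosis or its treatment had worked, so the groups do not stand for all treated rats. The number that opens each rat's label was 13 or 16 in control rats and 15 or 20 in CCl4 rats. What it stands for is not given in the sources used here, and for control against CCl4 rats it cannot be told apart from the treatment.

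Libraries held 16157491 to 21574767 counts on genes. Levels are given as FPM, fragments scaled to a common library size with the trimmed mean of M values (TMM), and in a run of values the rats stand in the order of their replicate numbers. FPM is not divided by gene length, so levels were not compared between genes. Differentially expressed genes (DEGs) had to reach an adjusted p (FDR, the false discovery rate) under 0.05 in edgeR and again in DESeq2, and log2 fold changes (log2FC), standard errors (SE) and printed FDRs are those of edgeR's quasi-likelihood test, with the Benjamini-Hochberg adjustment taken across the 14417 genes. A read with more than 1 mapping place was counted at every place. The RT1 copies are near-identical in part and differ between rats of an outbred stock such as Wistar, so a single copy's count may hold reads of its neighbours, and its split among copies is uncertain. How far the alleles of each rat shape the count of a copy was not tested.

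The sequence ahead of these genes is shown first because class I and class II genes are known to be switched through short promoter boxes, the X box bound by the RFX complex and the Y box, a CCAAT sequence bound by NF-Y, with Ciita or Nlrc5 docking on the proteins and not on the DNA. RefSeq promoters (build GRCr8) were found for 35 of the 41 members. The letters GNAAC followed after any 3 bases by TG were searched as part of an X box. These X letters and the letters CCAAT were searched on both strands in the 250 bases before each gene's start. Their distance was asked for with the X letters on either strand and CCAAT, on either strand, 20 to 40 bases further on. Further on was read along the strand of the X letters. These patterns were chosen with the sequences in view, and a match is a description of the letters, not a site. In the 4 class II and 2 class I pathway promoters below, written 5′ to 3′ on the gene's strand and ending at the base before the start, capitals mark the matches.
RT1-Da (chr20:4515295-4515414, plus strand): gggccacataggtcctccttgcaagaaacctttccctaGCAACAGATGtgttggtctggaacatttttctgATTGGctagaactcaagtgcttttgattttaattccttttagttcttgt
RT1-Db1 (chr20:4560163-4560282, minus strand): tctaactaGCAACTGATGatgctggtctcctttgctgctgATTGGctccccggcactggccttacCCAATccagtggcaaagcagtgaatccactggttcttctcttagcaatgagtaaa
RT1-DOb (chr20:4627524-4627643, minus strand): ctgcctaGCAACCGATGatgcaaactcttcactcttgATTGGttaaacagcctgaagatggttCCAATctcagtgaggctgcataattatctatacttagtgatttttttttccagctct
RT1-Ba (chr20:4576937-4577056, plus strand): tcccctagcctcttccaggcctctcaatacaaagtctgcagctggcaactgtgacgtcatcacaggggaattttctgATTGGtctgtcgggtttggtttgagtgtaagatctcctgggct
RT1-A2 (chr20:4872751-4872870, plus strand): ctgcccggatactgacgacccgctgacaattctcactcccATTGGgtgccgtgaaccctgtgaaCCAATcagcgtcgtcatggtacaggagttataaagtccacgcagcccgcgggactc
B2m (chr3:129549210-129549329, plus strand): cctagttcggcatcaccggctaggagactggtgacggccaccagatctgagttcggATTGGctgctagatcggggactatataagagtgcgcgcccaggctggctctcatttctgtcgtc

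CCAAT was present in 9 of the 9 class II promoters and in 13 of the 18 class I promoters found, against 34.0% of all 33469 promoters. The X letters were in 4 of the class II and 3 of the class I promoters, against 10.2% of all. The spaced pair of both was found ahead of 4 class II genes, RT1-Da, RT1-Db1, RT1-Db2 and RT1-DOb, of no class I gene, and of Cd74 among the 8 other members with a promoter, against 0.508% of all promoters. The X letters of these member pairs all lay on the gene's own strand, while the share over all promoters counts pairs on both strands. In RT1-Da the X letters and the CCAAT letters began 82 and 49 bases before the start, a spacing of 33. In RT1-Db1 and RT1-DOb the spacing was 32 and 30 bases. RT1-Ba held the CCAAT letters (as ATTGG, beginning 43 bases before the start) without the X letters as searched.

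Class II genes were higher in cirrhotic livers as a whole list. All 8 tested class II RT1 genes were DEGs in cirrhosis against control, all 8 higher, with log2FC from 2.15 to 3.18 and a median of 2.76. Of all genes tested, 13.4% were called higher in this comparison, and their median log2FC was -0.01. All 8 were called in each of the 14 fits that left out 1 rat. RT1-DOa and RT1-DOb, with 4 to 36 counts per control rat, passed the low-count filter through the CCl4 rats, where they were high. With at least 10 counts asked of every rat, 6 class II genes were left and edgeR called all 6 higher, against 11.9% of all genes left. In 7 of the 8, every rat with cirrhosis lay above every control rat, against 11.2% of all genes tested.

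The RT1-D and RT1-B chains form the molecules at the cell surface, the counterparts of human HLA-DR and HLA-DQ. RT1-Da, the alpha chain of RT1-D, measured 29.1, 19.8, 40.5 and 21.9 FPM in the 4 control rats, 229, 194, 260.1, 203 and 102 FPM in the 5 rats with cirrhosis and 113, 56.2, 251, 106 and 114 FPM in the 5 with cirrhosis & eplerenone. Every cirrhotic rat was above the highest control, replicate 4, and cirrhosis replicate 5 was the lowest of its group. The rise in cirrhosis was 7.10-fold (log2FC 2.83 ± 0.40 (SE), FDR 0.000889). RT1-Db1, its beta chain, measured 19.8, 12.1, 27.6 and 10.2 FPM in control, 219.8, 98.1, 249, 144 and 80.9 FPM in cirrhosis and 57.9, 32.3, 147, 58.8 and 75.5 FPM with eplerenone. It rose 9.09-fold (log2FC 3.18 ± 0.48 (SE), FDR 0.00116), the largest fitted rise of the class II RT1 genes, and again control and cirrhosis did not overlap.

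RT1-Ba, the alpha chain of RT1-B, was at 13.7, 12.3, 24.5 and 11.9 FPM in control, 128, 92.3, 140.4, 92.6 and 51.5 FPM in cirrhosis and 48.8, 23.0, 121, 48.7 and 55.4 FPM with eplerenone. Its rise in cirrhosis was 6.48-fold (log2FC 2.70 ± 0.43 (SE), FDR 0.00141). The beta chain RT1-Bb was at 15.6, 12.7, 26.4 and 11.8 FPM in control, 147, 113, 185, 190.1 and 84.4 FPM in cirrhosis and 31.7, 19.5, 129, 59.2 and 70.996 FPM with eplerenone, a rise of 8.64-fold in cirrhosis (log2FC 3.11 ± 0.48 (SE), FDR 0.00130). Control replicate 4 was the highest control for all 4 chains. RT1-Db2 had at most 1 count in any control, none in cirrhosis and at most 2 with eplerenone, and RT1-Ha, a chain of the third class II pair, had at most 12 counts in any rat, so neither was tested.

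The genes of peptide exchange rose as well. RT1-DMa measured 5.97, 6.65, 6.90 and 3.62 FPM in control, 60.3, 35.1, 85.5, 28.1 and 10.8 FPM in cirrhosis and 19.8, 8.44, 25.3, 12.8 and 21.7 FPM with eplerenone (log2FC 2.92 ± 0.50 (SE), FDR 0.00204 in cirrhosis). For RT1-DMb the values were 11.6, 9.19, 12.8 and 7.06 FPM, 63.8, 28.1, 62.2, 45.9 and 25.6 FPM and 18.3, 6.94, 31.2, 19.5 and 34.4 FPM in the same order (log2FC 2.15 ± 0.41 (SE), FDR 0.00365). Both subunits of RT1-DM stood above every control in every rat with cirrhosis. RT1-DOa, of the RT1-DM inhibitor, was low, at 0.362, 0.462, 2.20 and 0.509 FPM in control, 8.98, 4.32, 8.57, 4.77 and 2.14 FPM in cirrhosis and 1.89, 1.31, 4.69, 2.43 and 3.82 FPM with eplerenone (log2FC 2.70 ± 0.60 (SE), FDR 0.00801). Here the groups overlapped, since control replicate 4 reached the level of cirrhosis replicate 5. RT1-DOb was at 0.723, 0.231, 1.22 and 0.509 FPM, 4.16, 3.91, 3.18, 2.36 and 2.32 FPM and 3.12, 1.44, 2.71, 1.35 and 2.89 FPM (log2FC 2.24 ± 0.45 (SE), FDR 0.00478), without overlap between control and cirrhosis.

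The invariant chain and the class II transactivator moved in the same direction. Cd74 was at 97.8, 70.2, 131 and 64.7 FPM in control rats, 1043, 694, 1397, 700.3 and 355 FPM in cirrhosis and 314, 160.4, 616, 343 and 474 FPM with eplerenone. Its 9.22-fold rise in cirrhosis (log2FC 3.20 ± 0.44 (SE), FDR 0.000796) was close to those of the surface chains. Ciita, which encodes the transactivator itself, was at 1.51, 1.503, 1.95 and 2.10 FPM in control, 7.26, 8.48, 11.1, 9.07 and 3.99 FPM in cirrhosis and 6.74, 3.88, 9.95, 3.67 and 6.17 FPM with eplerenone, and rose 4.51-fold (log2FC 2.17 ± 0.36 (SE), FDR 0.00167). For both genes every CCl4 rat, with or without eplerenone, lay above every control.

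**Figure D1:**
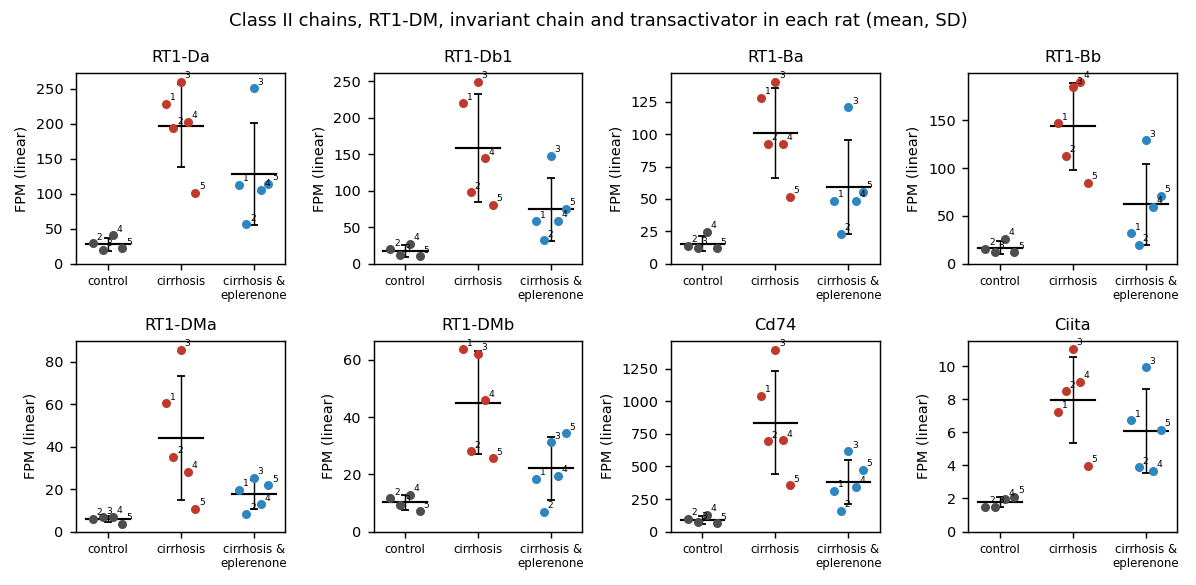
FPM on a linear axis for 6 class II RT1 genes, Cd74 and Ciita in each rat of the 3 groups (points, with the replicate number), with the group mean (line) and SD (bar). In all 8 panels the 5 rats with cirrhosis sit above the 4 control rats, and of the eplerenone rats replicate 2 is the lowest in all but Ciita, where replicate 4 is, and replicate 3 the highest in all but RT1-DMb, where replicate 5 is.

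In whole liver, more cells of a type and more RNA per cell cannot be told apart. Markers of other cells were counted too, beside 13.4% of all genes called higher and 6.67% called lower in cirrhosis. Of the dendritic cell markers 2 of 8 tested rose in cirrhosis, Itgax (3.11 ± 0.51) and Flt3 (1.72 ± 0.32). Only 6 of the 8 had a log2FC above 0, and the median of the 8 was 0.49. The summed level of the 9 listed genes was 6.82 to 11.2 FPM in control, 17.1 to 23.0 FPM in cirrhosis and 14.3 to 26.4 FPM with eplerenone. Of the T and NK cell markers 6 of 10 rose (Cd2 most, 3.13 ± 0.54), and their sum was 11.0 to 18.9, 18.4 to 33.8 and 13.5 to 35.4 FPM in these groups. Of the 11 macrophage markers Lyz2 rose (3.33 ± 0.56) and Cd163 fell (-1.22 ± 0.31), with sums of 375 to 648, 407 to 998 and 329 to 929 FPM that overlapped. For B cells 1 of 7 tested rose (Fcrla, 1.91 ± 0.45), and the sums of 8 listed genes overlapped at 7.69 to 12.5, 9.58 to 15.4 and 9.76 to 15.8 FPM. Bile duct markers rose in 5 of 6, stellate cell markers in 4 of 6, and of 6 endothelial markers Vwf rose and Kdr fell, while 0 of 8 hepatocyte markers were called (2 with an unadjusted edgeR p below 0.05, and 89806 to 155814 FPM in cirrhosis against 156120 to 171847 in control). No marker was at 0 in all rats of a group. Their part in the class II levels was not tested.

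Most class I genes did not pass the test in cirrhosis. Of the 20 class I RT1 genes tested 4 were DEGs, all higher, beside 13.4% of all genes called higher. Of the 4, RT1-S2 and RT1-M5 had at most 1 count in any control rat and passed the low-count filter only through the CCl4 rats, which fixed their direction. With at least 10 counts in every rat, edgeR called 2 of the 17 class I genes left, both higher, against 11.9% of all genes left. The median log2FC over the 20 was 0.60, also with RT1-S2 at its lower bound, with 19 above 0. An unadjusted edgeR p below 0.05 was found for 6 (37.1% of all genes), and DESeq2 alone called 5 (27.8% of all genes). Scaling by total counts in place of TMM moved the median of all genes to 0.28 in this comparison, that of class I to 0.89 and that of class II to 3.05.

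RT1-A1 and RT1-A2 are the heavy chains of the classical class I molecules. RT1-A1 was at 227, 326, 251 and 262 FPM in control, 455, 288, 486, 435 and 294 FPM in cirrhosis and 117, 79.4, 137, 447 and 473 FPM with eplerenone. RT1-A2 was at 461, 472, 437 and 361 FPM, 686, 399, 796, 659 and 524 FPM and 173, 118, 184, 624 and 713 FPM. Neither was called in cirrhosis (log2FC 0.56 ± 0.45 (SE), FDR 0.369 for RT1-A1, and log2FC 0.50 ± 0.45 (SE), FDR 0.423 for RT1-A2), and the groups overlapped. The widest spread was within the eplerenone group, where replicates 1, 2 and 3 lay below every control and replicates 4 and 5 above every control. Both genes together made up 46.7 to 50.1% of all class I RT1 counts in control, 45.7 to 51.1% in cirrhosis and 33.7 to 46.8% with eplerenone.

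Among the further class I genes, the 4 DEGs were RT1-S2, RT1-M5, RT1-M3-1 and RT1-T24-4. RT1-T24-4 was at 56.8, 49.2, 41.0 and 35.7 FPM in control, 115, 57.1, 129, 96.7 and 75.9 FPM in cirrhosis and 53.4, 32.6, 62.2, 86.8 and 91.4 FPM with eplerenone, a rise of 2.07-fold in cirrhosis (log2FC 1.05 ± 0.30 (SE), FDR 0.0237). RT1-M3-1, kin to the mouse molecule known for presenting formylated peptides, was at 4.34, 1.85, 3.30 and 2.35 FPM, 5.60, 8.03, 8.68, 12.96 and 3.39 FPM and 5.11, 3.44, 11.4, 6.49 and 6.99 FPM (log2FC 1.39 ± 0.41 (SE), FDR 0.0299). It overlapped with control in cirrhosis replicate 5. Both calls depended on single rats, with RT1-T24-4 called in 10 and RT1-M3-1 in 9 of the 14 leave-one-out fits. The class I list held 1 call without cirrhosis replicate 3 and 2 without cirrhosis replicate 4 or control replicate 3, 4 or 5. In these fits, in the order named, 1341, 1385, 1152, 1324 and 1035 of all genes were called higher, against 1937 in the main fit. Without cirrhosis replicate 1, 3, 4 or 5, only 19 class I genes were tested, because RT1-M5 then failed the low-count filter. The fit of these 2 groups alone called 6, beside 1921 of 13777 genes called higher.

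RT1-S2 and RT1-M5 were near or at 0 in control livers. RT1-S2 had 0 counts in each of the 4 control rats, and 16.3, 6.36, 3.56, 2.92 and 0.833 FPM in cirrhosis and 0, 0.250, 2.95, 0.338 and 3.93 FPM with eplerenone. Against a floor of 3 counts in each control library (0.182 FPM over the group), it was at least 33.1-fold higher in cirrhosis, and at least 20.3-fold without cirrhosis replicate 1, the highest rat (edgeR FDR 0.00852). RT1-M5 had 0, 0, 0 and 1 counts in control, 35, 4, 40, 22 and 12 in cirrhosis and 7, 2, 9, 8 and 1 with eplerenone. The 113 counts in cirrhosis against 1 in control gave a ratio of 76.5 per effective library size (edgeR FDR 0.00325). Its exact 95% interval of 13.5 to 3050 covers counting error only. RT1-M4, not tested, had 26 counts in cirrhosis and 0 in control. Whether each rat carries these copies was not tested.

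The remaining class I genes were not called. RT1-CE5 had the largest of these changes with an unadjusted p under 0.05 (116, 114, 90.5 and 59.4 FPM in control and 320.4, 157, 434, 186 and 116 FPM in cirrhosis, log2FC 1.35 ± 0.52 (SE), FDR 0.0745), and was a DEG by DESeq2 alone. RT1-CE3 and RT1-CE7 did not overlap between control and cirrhosis but missed the threshold (log2FC 0.64 and 0.44). RT1-N2 was the 1 gene with a negative log2FC (-0.49 ± 0.32). RT1-S3 separated by rat rather than by group, at 165, 162, 171 and 153 FPM in control, 129, 128, 118, 253 and 311 FPM in cirrhosis and 112, 120.2, 143, 360.3 and 313 FPM with eplerenone. Under TMM, cirrhosis replicates 4 and 5 and eplerenone replicates 4 and 5 were high and the other CCl4 rats below the control range. All 4 high rats carry the label prefix 20, as does eplerenone replicate 3, which was low under TMM. That rat had the highest TMM factor, 1.40, against 0.847 to 0.877 in control. It held 3525 RT1-S3 counts of 17605049, against 2409 to 2807 counts in the larger control libraries. By total counts it lay above every control, and cirrhosis replicate 2 within the control range.

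**Figure D2:**
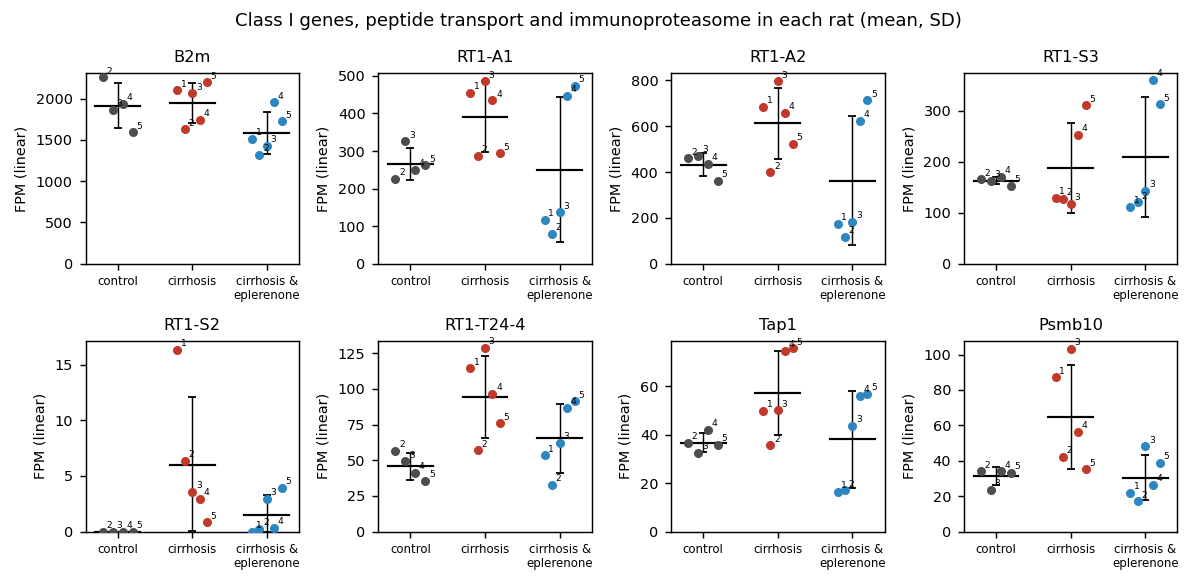
FPM on a linear axis for B2m, 5 class I RT1 genes, Tap1 and Psmb10 in each rat (points, with the replicate number), with group mean (line) and SD (bar, cut at 0 where the SD exceeds the mean). In RT1-A1 the eplerenone rats split into replicates 1 to 3 at 79.4 to 137 FPM and replicates 4 and 5 at 447 and 473 FPM, RT1-S2 is at 0 in the 4 control rats, and B2m lies between 1319 and 2259.6 FPM in all rats.

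The light chain and the class I transactivator were not called. B2m was at 2259.6, 1861, 1939 and 1592 FPM in control, 2098, 1628, 2062, 1746 and 2199 FPM in cirrhosis and 1512, 1319, 1426, 1954 and 1724 FPM with eplerenone, with a log2FC of 0.03 ± 0.20 (SE) in cirrhosis. Nlrc5 was at 6.45, 5.95, 5.19 and 6.48 FPM, 1.55, 5.50, 2.05, 3.33 and 8.21 FPM and 8.73, 8.88, 9.99, 3.72 and 4.26 FPM (log2FC -0.54 ± 0.43 (SE), FDR 0.364). Its cirrhotic rats ranged from below to above the controls.

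Of the transport, loading and immunoproteasome genes only Psmb10 was a DEG in cirrhosis. Psmb10 was at 33.9, 23.5, 34.1 and 33.1 FPM in control, 87.2, 42.1, 103, 56.4 and 35.1 FPM in cirrhosis and 21.9, 17.1, 48.2, 26.5 and 38.8 FPM with eplerenone (log2FC 1.06 ± 0.34 (SE), FDR 0.0408), and every cirrhotic rat lay above every control. That call was kept in 6 of the 14 fits without 1 rat. Psmb8 was at 111, 97.1, 124 and 98.9 FPM in control, 241, 108, 209.6, 129 and 146 FPM in cirrhosis and 72.2, 59.7, 109.8, 125 and 139 FPM with eplerenone (log2FC 0.63 ± 0.28 (SE), FDR 0.112). Psmb9 was at 74.7, 47.0, 81.0 and 51.4 FPM, 142, 65.9, 129.9, 102 and 98.8 FPM and 45.7, 35.2, 79.8, 71.4 and 83.3 FPM (log2FC 0.76 ± 0.28 (SE), FDR 0.0680). Neither passed the threshold in edgeR, and both overlapped with control at cirrhosis replicate 2.

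Tap1 was at 36.6, 32.4, 41.9 and 35.7 FPM in control, 49.9, 35.6, 49.9, 74.4 and 75.6 FPM in cirrhosis and 16.3, 17.1, 43.5, 56.1 and 56.9 FPM with eplerenone (log2FC 0.64 ± 0.35 (SE), FDR 0.198). Tap2 was at 32.1, 30.2, 40.2 and 35.0 FPM, 40.1, 40.2, 39.5, 61.1 and 48.0 FPM and 24.3, 24.3, 43.4, 52.5 and 46.1 FPM (log2FC 0.41 ± 0.23 (SE), FDR 0.208). Tapbp was at 27.6, 31.0, 33.9 and 32.5 FPM, 66.7, 50.6, 82.9, 36.7 and 31.0 FPM and 25.7, 29.3, 51.6, 35.3 and 57.2 FPM (log2FC 0.78 ± 0.29 (SE), FDR 0.0682). For both transporter genes eplerenone replicates 1 and 2 were the lowest of all rats. Of the 10 members that are not RT1 genes, 3 were called higher in cirrhosis (Cd74, Ciita and Psmb10), beside 13.4% of all genes, with 5 by DESeq2 alone, which added Psmb9 and Tapbp, beside 27.8%.

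**Figure D3:**
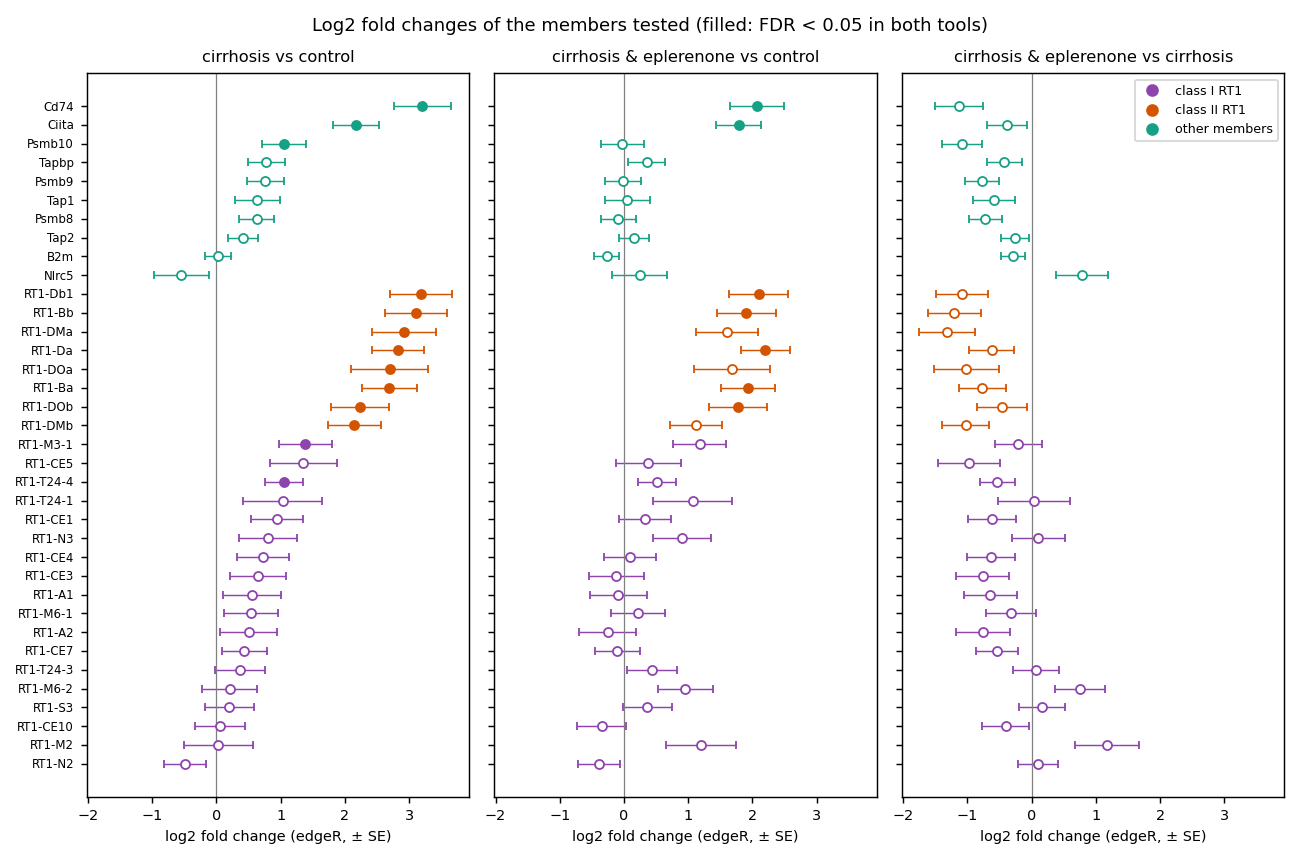
Log2FC from edgeR (points, bars are SE) of the members tested in cirrhosis vs control, cirrhosis & eplerenone vs control, and cirrhosis & eplerenone vs cirrhosis, with filled points for FDR below 0.05 in both tools, on 1 shared axis. RT1-S2 and RT1-M5, at 0 or 1 count in control, are left out. The 8 class II genes, Cd74 and Ciita form a block from 2.15 to 3.20 in the first panel, away from the class I genes, and no point is filled in the third.

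Class I and class II were next set side by side within each rat. The summed class I level was 1243.5 to 1611 FPM in control, 1502 to 2773 FPM in cirrhosis and 585.4 to 2534 FPM with eplerenone. The summed class II level was 67.6 to 142 FPM in control, 359 to 994 FPM in cirrhosis and 150 to 712 FPM with eplerenone. The class II sums of both CCl4 groups lay above all controls, while the class I sums overlapped. The log2 ratio of the class II to the class I sum was -3.97 ± 0.50 (SD, n = 4) in control, -1.65 ± 0.36 (n = 5) in cirrhosis and -1.89 ± 1.02 (n = 5) with eplerenone. In the eplerenone group replicates 1, 2 and 3, with class I sums of 773, 585.4 and 954 FPM, had ratios of -1.39, -1.97 and -0.42, and replicates 4 and 5, with class I sums of 2327 and 2534 FPM, had -2.91 and -2.74.

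A separate ratio, which does not rest on the near-identical RT1 copies, used 1 gene of each branch. The log2FC in cirrhosis was 0.03 for B2m and 3.20 for Cd74, so this ratio carries mainly the Cd74 change. It is not the same measure as the ratio of the RT1 sums. Eplerenone replicate 5 was at -2.74 in the ratio of sums and at -1.86 in that of Cd74 to B2m. The log2 ratio of Cd74 to B2m counts was -4.44 ± 0.38 (SD, n = 4) in control, -1.35 ± 0.77 (n = 5) in cirrhosis and -2.18 ± 0.69 (n = 5) with eplerenone. It was 3.09 higher in cirrhosis than in control (p = 0.0159 when the rats were permuted exactly, two-sided, and 0.0238 after adjustment for 3 comparisons). With eplerenone it was 2.26 higher than in control (exact permutation p = 0.0159, adjusted p = 0.0238). A p of 0.0159 is the smallest that 5 against 4 rats can give, and all CCl4 rats lay above all controls in both comparisons. Against cirrhosis alone the eplerenone ratio was 0.83 lower, a difference of -0.83 that did not pass (exact permutation p = 0.127, adjusted p = 0.127, smallest possible 0.00794). Without cirrhosis replicate 5 that difference was -1.15 (exact permutation test, adjusted p = 0.0476). This rat had the lowest ratio of its group (-2.63), so leaving it out widens the difference by construction. With any other single CCl4 rat left out the difference did not pass, and it was as small as -0.61. Without any 1 control rat, both differences from control had an adjusted p of 0.0536 in the exact permutation test, the smallest that 3 controls allow.

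**Figure D4:**
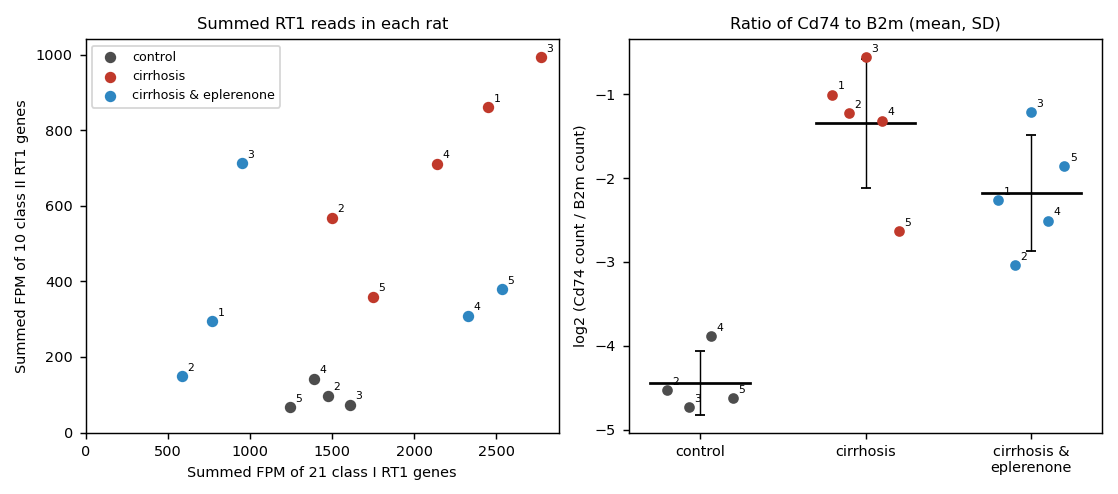
Left, the summed FPM of the 10 class II RT1 genes against that of the 21 class I RT1 genes, 1 point per rat with its replicate number. Right, the log2 ratio of Cd74 to B2m counts per rat with group mean (line) and SD (bar). Both CCl4 groups lie above control on the class II axis and in the ratio, and the eplerenone rats fall into 3 with class I sums of 585.4 to 954 FPM and 2 with 2327 and 2534 FPM.

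In rats with cirrhosis & eplerenone, class II genes were still above control, in fewer calls. Of the 8 class II RT1 genes 5 were DEGs, all higher: RT1-Da (log2FC 2.20 ± 0.39 (SE), FDR 0.00651), RT1-Db1 (2.10 ± 0.46), RT1-Ba (1.93 ± 0.42), RT1-Bb (1.90 ± 0.46) and RT1-DOb (1.77 ± 0.45). RT1-DMa (1.61 ± 0.48, FDR 0.0655), RT1-DMb (1.12 ± 0.40, FDR 0.118) and RT1-DOa (1.68 ± 0.59, FDR 0.113) did not pass in edgeR, although all 8 passed in DESeq2. The median log2FC of the 8 was 1.84, against 0.01 over all genes tested, of which 4.33% were called higher. RT1-Da, RT1-Db1, RT1-DMa and RT1-DOb did not overlap with control, against 6.41% of all genes. RT1-DOb passed the low-count filter through the CCl4 rats, where it was high. With at least 10 counts asked of every rat, edgeR called 4 of the 6 class II genes left. Of all 11199 genes left, 308 were called higher. The count of 5 moved both ways with single rats. It was 1 without control replicate 3 or 5, 2 without control replicate 2 and 3 without eplerenone replicate 3 or 5. It was 4 without eplerenone replicate 1, 6 without control replicate 4 or cirrhosis replicate 3 or 5, and 7 without eplerenone replicate 2. The number of all genes called higher moved too, from 624 in the main fit. In these fits, in the order named, it was 260, 180, 344, 310, 440, 487, 361, 593, 863 and 994.

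Cd74 (log2FC 2.07 ± 0.42 (SE), FDR 0.0125) and Ciita (log2FC 1.79 ± 0.35 (SE), FDR 0.0108) were DEGs as well. Among the 20 class I RT1 genes 0 were called by edgeR in this comparison (5 with an unadjusted p below 0.05, against 20.5% of all genes, and 3 by DESeq2 alone, against 10.6%), and their median log2FC was 0.37. Pooled over the group, RT1-S2 was at least 8.85-fold above the control floor, and at least 5.85-fold without its highest rat, replicate 5. It missed the threshold in edgeR (FDR 0.0609). Of its 155 counts, replicates 3 and 5 held 73 and 72, and replicates 1, 2 and 4 held 0, 4 and 6. The pooled bound thus rests on 2 rats and does not describe the others. Psmb8, Psmb9, Psmb10 and Tap1 had log2FC near 0 under TMM (-0.09, -0.01, -0.03 and 0.05), and under scaling by total counts, which raised the median of all genes to 0.32, Psmb8, Psmb9 and Psmb10 were above 0 (0.23, 0.33 and 0.35). Beside these, 2 of 8 dendritic cell markers (Itgax, 2.50 ± 0.50, and Flt3, 1.75 ± 0.32), 1 of 11 macrophage markers (Lyz2, 2.79 ± 0.54), 1 of 10 T and NK cell markers (Cd2, 2.03 ± 0.53), 2 of 6 stellate cell and 2 of 6 bile duct markers rose over control. Of all genes tested, 4.33% were called higher here. None of the 7 B cell, 6 endothelial and 8 hepatocyte markers was called by both tools (1, 1 and 2 had an unadjusted edgeR p below 0.05), and the median log2FC was 0.41 over the dendritic cell and 0.55 over the macrophage markers. The part of these cells in the class II levels was not tested. These values share the control rats with the comparison of cirrhosis and control.

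Between cirrhosis & eplerenone and cirrhosis, 0 of the 38 members tested were called by either tool, against 0.0139% of all genes by both and 0.513% by DESeq2 alone. An unadjusted edgeR p below 0.05 was found for 4 class II genes (RT1-DMa, RT1-Bb, RT1-DMb and RT1-Db1), 2 class I genes (RT1-M5 lower and RT1-M2 higher) and 4 others (Psmb10, Cd74, Psmb9 and Psmb8), against 14.4% of all genes. All 8 class II RT1 genes had a negative log2FC, from -1.32 to -0.47 with a median of -1.02, where 48.9% of all genes were below 0. RT1-Bb (log2FC -1.21 ± 0.41 (SE), FDR 0.312) and RT1-DMa (log2FC -1.32 ± 0.43 (SE), FDR 0.312) were among the lowest. The class I median was -0.47, with 13 of 20 negative. Psmb10 (log2FC -1.09 ± 0.32 (SE), FDR 0.312) and Cd74 (log2FC -1.13 ± 0.38 (SE), FDR 0.312) did not pass either. Nlrc5 and RT1-M2 were on the other side of 0 (0.79 ± 0.41 and 1.17 ± 0.50).

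The same difference was also taken within each label prefix. Among rats with the prefix 15 (3 with cirrhosis and 2 with eplerenone), 8 of 8 class II, 18 of 20 class I and 9 of 10 other members were lower with eplerenone in mean log2(FPM + 0.5), with median differences of -1.92, -1.31 and -1.31. Among rats with the prefix 20 (2 and 3), 5 of 8, 9 of 20 and 7 of 10 were lower, with medians of -0.03, 0.12 and -0.17. For Cd74 the difference was -2.16 with the prefix 15 and -0.10 with 20, and for RT1-A2 -2.07 and -0.44. Whether the 2 prefixes differ was not tested. A fit of the CCl4 rats with the prefix as a term called 0 members by edgeR (12 of 37 had an unadjusted p below 0.05, against 8.75% of all genes) and gave a class II median of -1.03 and a class I median of -0.56.

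The comparison was also made with 4 rats per group, without cirrhosis replicate 5 and eplerenone replicate 3, both of the prefix 20. The study used 4 per group in 1 of its selections without naming the rats, and these 2 were taken as the ones left out because the group means listed there can be formed without them. On those rats 6 class II genes (RT1-Da, RT1-Db1, RT1-Ba, RT1-Bb, RT1-DMa and RT1-DMb), Cd74 (log2FC -1.59) and Psmb10 (log2FC -1.49) were called lower with eplerenone and 0 of 19 class I genes were called, while 664 of all 14126 genes tested (4.7%) were called lower and 628 higher. Cirrhosis replicate 5 had the lowest class II sum of its group (359 FPM) and eplerenone replicate 3 the highest of its own (712 FPM), so leaving them out moves the groups apart by construction. Eplerenone replicate 3 also had the highest dendritic cell (26.4 FPM) and T and NK cell (35.4 FPM) marker sums and the lowest hepatocyte sum (84966 FPM) of all rats, and cirrhosis replicate 5 had the lowest T and NK cell sum (18.4 FPM) and the highest hepatocyte sum (155814 FPM) of its group. Their part in the result was not tested. With all rats, and with any 1 rat left out, 0 class II genes were called.

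**Figure D5:**
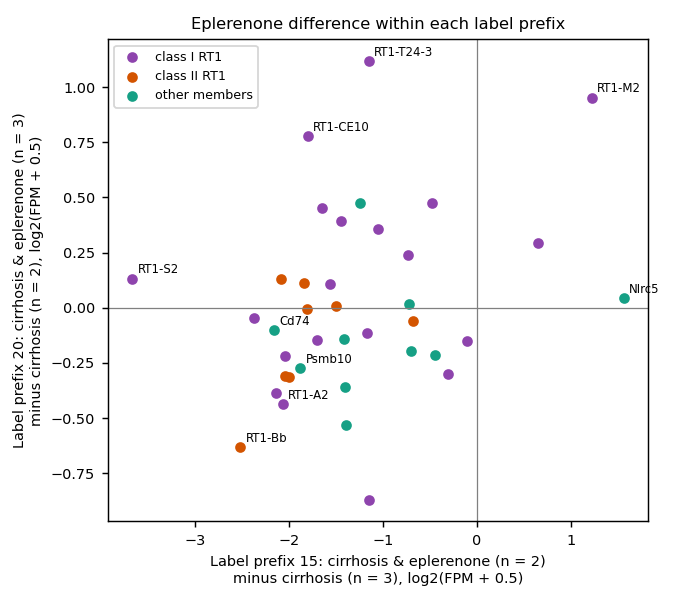
Difference in mean log2(FPM + 0.5), cirrhosis & eplerenone minus cirrhosis, for the 38 members tested, among rats of label prefix 15 (x axis) and of label prefix 20 (y axis). Most points lie left of 0 on the x axis, with class II between -2.52 and -0.68, and around 0 on the y axis, with class II between -0.63 and 0.13.

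Other genes of the pathway, listed by their known roles, were counted as well, beside 13.4% of all genes called higher and 6.67% called lower in cirrhosis. Of the class II endosomal genes 2 of 6 tested rose in cirrhosis, Lgmn, an endosomal protease (1.44 ± 0.32), and Ifi30, a thiol reductase of the endosome (1.23 ± 0.28), and 0 fell. Among 13 tested transcription factors of the MHC promoters and parts of the interferon gamma pathway, 2 rose (the receptor chains Ifngr1, 1.13 ± 0.28, and Ifngr2, 1.03 ± 0.19) and 2 fell (the NF-Y subunit Nfyb, -0.81 ± 0.22, and the kinase Jak1, -0.74 ± 0.23). Ifng itself had 0 counts in each of the 14 rats, which allows up to 0.191 FPM in the control library of smallest effective size. Of 3 tested costimulation genes Cd86 rose (1.36 ± 0.42), and of 5 MHC-like genes outside the RT1 names Azgp1 fell (-0.78 ± 0.25). Of 6 genes of class I folding and peptide trimming and 5 of the constitutive proteasome and its activators, 0 were called by both tools and 0 had an unadjusted p below 0.05. With eplerenone against control, Ifngr2 (0.82 ± 0.19) was the 1 gene called in these lists, and against cirrhosis none was called.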

How the data were processed

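Libraries of 14 rats were analysed, made from whole-liver RNA after enrichment on oligo(dT) beads. Per the methods, the authors mapped reads to rn6 with HISAT2 2.1.0 and counted them per gene with featureCounts, multi-mapped reads included, and deposited the raw counts without normalization. A strand setting is not given in the sources used here. All mapped columns of the count table were used, and no 2 libraries held identical values. The members and gene lists were chosen with earlier results of these data known.

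All groups entered 1 model without covariates in R 4.3.3. Genes were kept by filterByExpr of edgeR 4.0.16 (minimum count 10), scaled by TMM and tested with glmQLFit and glmQLFTest, and in parallel with the Wald test of DESeq2 1.42.0 without independent filtering, and both were tested on simulated data first. The SE is the absolute log2FC divided by the square root of F. A pseudocount of 0.5 counts was used in the Cd74 to B2m ratio. Named with values in every rat were the members outside RT1, the class II RT1 genes tested, RT1-A1, RT1-A2 and up to 5 further class I genes called, and, of other lists, up to 4 called genes of largest change. RT1-S3, RT1-CE5, RT1-CE3, RT1-CE7, RT1-N2, RT1-M2 and RT1-M4, and the features of single rats, were chosen after their values were seen. Alternatives were DESeq2 size factors, total counts, other filters, each tool alone, 2-group fits, protein coding genes only, a replicate block, the label prefix as a term, 4 rats per group and leaving out each rat. The labels tie each library to 1 rat, so p-values cover the spread between these selected rats.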

Additional observations from a re-analysis of the deposited data

Results flagged for a closer look

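Within groups of 4 or 5 rats, single rats far from the rest were looked for in 81 sets of values, and 4 were found, all in control, where about 0.05 of such sets stand out by chance. Control replicate 4 was the highest control for RT1-Ba (24.5 FPM) and for RT1-DOa (2.20 FPM). Control replicate 3 was the lowest for Psmb10 (23.5 FPM), and control replicate 5 held the only RT1-M5 count of its group (0.0636 FPM). For RT1-Ba, control replicate 4 still lay below every rat with cirrhosis, and for RT1-DOa it did not.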

How the results depend on the processing

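All 146 alternative medians of the class I and class II lists kept their direction. Over these settings the class II median ranged from 2.54 to 3.05 in cirrhosis vs control, 1.48 to 2.23 in cirrhosis & eplerenone vs control and -1.44 to -0.82 between both CCl4 groups, and the class I median from 0.47 to 0.89, 0.16 to 0.64 and -0.71 to -0.28. Of 518 refits of the 22 called changes of named genes, 476 kept their side of the threshold and 42 lost it. Settings in which the filter removed RT1-M5, RT1-S2, RT1-DOa or RT1-DOb are not among the 518. In cirrhosis vs control RT1-M5 had 18 refits and the other 3 had 23 each, where Cd74 had 24. In cirrhosis vs control, class I calls were 2 with at least 10 counts in every sample and 2 with the replicate block but 5 with total counts, without a filter or by DESeq2 and 6 in the 2-group fit, and the other members had 6 calls with total counts and 5 by DESeq2. All were higher. Of all genes, 1332 of 11199, 1211 of 14417, 3055 of 14417, 1833 of 21282, 2576 of 14417 and 1921 of 13777 were called higher in these settings, in the order named. In cirrhosis & eplerenone vs control, class I calls were 2 with total counts, 1 without a filter and 3 by DESeq2, and class II calls 8 by DESeq2 and 2 with the replicate block. Of all genes, 1282 of 14417 were called higher with total counts and 600 of 21282 without a filter. By DESeq2 it was 1217 of 14417, and with the replicate block 232 of 14417. With 4 rats per group, 6 class II and 2 other members were called lower between both CCl4 groups, beside 664 of all 14126 genes. The Cd74 to B2m ratio then differed by -1.39 (exact permutation test, adjusted p = 0.0286). The rats left out had the lowest cirrhosis and the highest eplerenone ratio, which widens that difference by construction.

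Leaving out 1 rat gave 1 to 5 class I, 8 to 8 class II and 2 to 4 other calls in cirrhosis vs control. Of all genes, 1035 (of 14745) to 2586 (of 14356) were then called higher. With eplerenone vs control the calls were 0 to 1, 1 to 7 and 1 to 2. Here 180 (of 14745) to 994 (of 14374) of all genes were called higher. Between both CCl4 groups the calls were 0 to 0 in each list, beside 0 to 26 of all genes in either direction. The Cd74 to B2m ratio without 1 rat ranged from 2.89 to 3.41, 2.02 to 2.48 and -1.15 to -0.61 in these comparisons.

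Signs changed only where no call was made. Against control, the eplerenone log2FC became 0.038 (B2m), 0.35 (Psmb10), 0.23 (Psmb8), 0.33 (Psmb9) and 0.17 (RT1-A1) with total counts, 0.025 (Psmb10) and 0.038 (Psmb9) with 10 counts in every sample, 0.075 (RT1-A1) with 4 rats, and for Psmb9 0.0040 with DESeq2 size factors and by DESeq2, 0.015 without a filter and 0.012 in the 2-group fit. For Tap1 it was -0.00059 with the replicate block. Without 1 rat, eplerenone vs control ranged from -0.25 to 0.12 (Psmb10), -0.23 to 0.049 (Psmb8), -0.13 to 0.14 (Psmb9), -0.14 to 0.27 (Tap1) and -0.45 to 0.14 (RT1-A1), B2m in cirrhosis from -0.057 to 0.11, and RT1-M3-1 between both CCl4 groups from -0.52 to 0.068. The cause of these shifts was not tested.

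The replicate numbers did not pair the rats: deviations of same-numbered rats correlated at -0.35 to 0.21 over 13 pairs, 4 of them above 0.1. With pairing by number the ratio differed from control by 3.01 in cirrhosis and 2.29 with eplerenone (adjusted p = 0.188 in exact permutations of 4 pairs, too few to pass). Depth limits RT1-S2, RT1-M5, RT1-M4, RT1-Db2, RT1-Ha and the RT1-DO genes, whose values rest on few reads.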
